A study of Canis lupus familiaris with 12 samples.

Results

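The MDCKII line in which the cingulin gene (CGN) had been disrupted was compared with WT MDCKII cells by RNASeq, gene by gene, over 6 of the 12 libraries of the study. MDCKII is an epithelial cell line from dog kidney. The CGN-KO group was 1 cloned line (1G8) made with CRISPR/Cas9 and sequenced as 3 libraries, and the WT group was 3 libraries of cells of genotype WT. No cells were treated, and all had been grown for 3 d before RNA was taken. The other 6 libraries, 3 of a CGNL1-KO line (clone 22) and 3 of a line lacking both genes (clone 21D3, called CGN_CGNL-dKO in the labels and double-KO here), entered the fit for the spread between libraries. They are also used below to show where the CGN-KO line differed from the other lines. Because each KO genotype was 1 clone, a change made by the loss of the gene and a difference that this clone carried for another reason cannot be told apart. Nothing states that the 3 libraries of a group came from separate cultures, so the p-values measure the spread between these libraries, which may be technical.

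Cingulin is a coiled-coil protein of the cytoplasmic plaque of tight junctions, the seals near the apical border of epithelial cells. It binds the scaffold ZO-1 and links the junction to actin filaments, nonmuscle myosin II, and microtubules, and it also holds regulators of small GTPases and transcription factors at the junction. Paracingulin (CGNL1) is its paralog and is found at both tight and adherens junctions. An mRNA measurement shows none of these protein contacts, and describes which genes the cells transcribed and kept as message.

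CGN mRNA was present at 233, 211, and 199 CPM (the reads of a gene scaled to the size of its library) in the 3 WT libraries and at 56.5, 48.3, and 47.00 CPM in the 3 CGN-KO libraries. All 3 CGN-KO libraries were far below the WT libraries, with some message left. The mean fell from 214 ± 17.25 to 50.6 ± 5.17 CPM (SD, n = 3 each), a 4.23-fold difference with a log2 fold change of -2.06 ± 0.075 (SE) and a limma adjusted p of 2.15e-11. Fold values here are ratios of mean CPM, and log2 fold changes come from log2(CPM + 1), which understates the change of genes near or below 1 CPM. In RNA of whole cultures, fewer cells of a type and less RNA per cell cannot be told apart. Of the 9 epithelial markers examined, all were measured, and their summed level was 9572 to 10142 CPM in WT and 10077 to 10257 CPM in CGN-KO libraries. EPCAM, an epithelial adhesion molecule, rose 1.32-fold and KRT19 1.37-fold, KRT18 fell 1.27-fold, and the other 6 did not pass the test. Of 6 kidney tubule markers 5 were measured, and their summed level was 274 to 305 CPM in WT and 311 to 340.0 CPM in CGN-KO libraries. The proximal tubule list gave 1 measured marker of 6, CUBN, at 17.35 to 21.15 CPM in WT and 16.99 to 19.8 CPM in CGN-KO libraries.

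Markers of other cell types were few and low. Of 8 fibroblast markers 1 was measured, PDGFRA, at 5.48, 2.705, and 3.97 CPM in WT and 11.1, 5.88, and 6.73 CPM in CGN-KO libraries. The summed endothelial markers (KDR and VWF, 2 of 7) lay between 1.38 and 2.04 CPM, the leukocyte markers (CD68, 1 of 7) between 0.56 and 1.23 CPM, and the smooth muscle markers (ACTA2 and TAGLN, 2 of 6) between 8.97 and 10.5 CPM over the 6 libraries, and none of 6 neuronal markers was measured. The libraries held 16837532 to 20987950 reads for WT and 16875183 to 30086076 reads for CGN-KO cells. CGN-KO replicate 1 was the deepest, and it was the highest of the 3 CGN-KO libraries for 81 of the 124 genes called higher. WT replicate 1 was the highest WT library for 69 of them. The 13 mitochondrially encoded genes took 6.88% to 7.79% of the reads in WT and 4.98% to 6.53% in CGN-KO libraries. When reads were drawn down to a common depth, that of the smallest library, 123 genes were called higher and 44 lower, and 161 calls were shared with the 166 described here. The part of the mitochondrial share in the results was not tested.

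Of 12650 genes tested, 124 (0.98%) were called higher and 42 (0.332%) lower in CGN-KO cells, at a limma adjusted p below 0.05 and a difference of at least 2-fold on the log2(CPM + 1) scale. Every one of these 166 genes had 3 CGN-KO values on one side of the 3 WT values, as did 18.4% of all genes upwards and 17.5% downwards. The changes were moderate in size. On that scale 11 of the rises and 5 of the falls reached 4-fold, and the median log2 fold change was 1.30 among genes called higher and -1.36 among genes called lower. Without the requirement of 2-fold, 1412 genes (11.2%) were higher and 996 (7.87%) lower by adjusted p, and without WT replicate 2 the number of lower genes was 604. Gene groups are described below by these counts at any fold, so the shares 11.2% and 7.87% are the background for each. Of the genes past adjusted p, 52 (0.411%) were below 1 CPM in all WT and above 1 CPM in all CGN-KO libraries, and 16 (0.126%) changed in the opposite sense. The median log2 fold change of all genes tested was -0.0039. With edgeR on the recovered reads, which uses no pseudocount of 1 CPM, 240 genes were called higher and 69 lower.

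**Figure D1:**
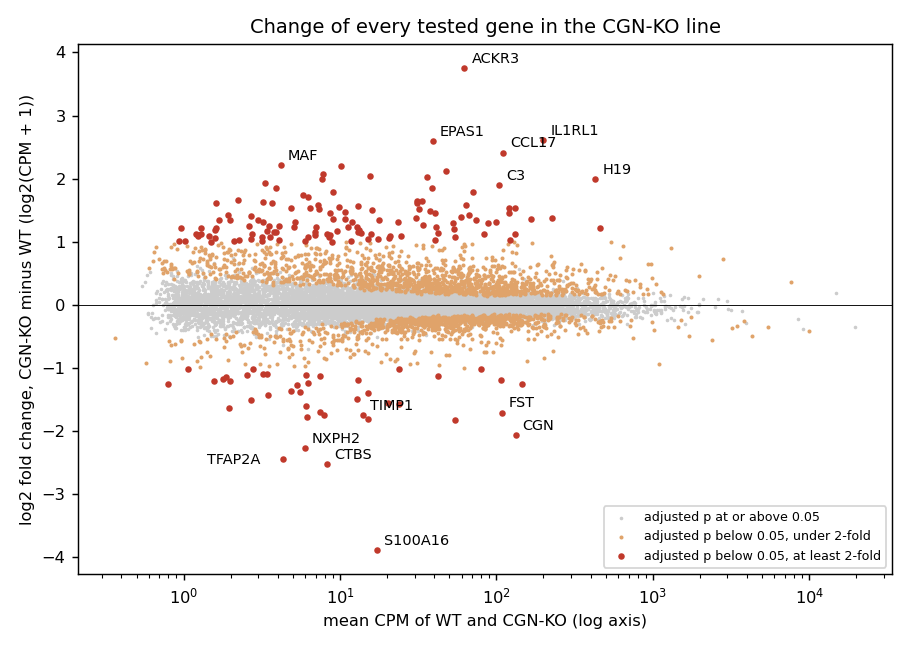
Each point is 1 of 12650 genes, plotted by its mean CPM over WT and CGN-KO (log axis) and its log2 fold change in CGN-KO against WT. Red points are the 124 genes called higher and the 42 called lower, and ACKR3 and S100A16 stand farthest from 0 at 3.75 and -3.88.

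Genes are ranked by size on the log2(CPM + 1) scale. The gene that rose most was ACKR3, which encodes a scavenger receptor for the chemokine CXCL12. It was at 7.78, 6.62, and 8.98 CPM in WT and at 108, 126, and 117 CPM in CGN-KO libraries, 15.01-fold higher, with a log2 fold change of 3.75 ± 0.10 and an adjusted p of 3.39e-13. The groups were far apart, and the spread within each was small. IL1RL1, the receptor for the alarmin interleukin-33, was at 58.2, 47.7, and 61.2 CPM in WT and 354, 326, and 349.9 CPM in CGN-KO libraries (6.16-fold, adjusted p = 8.60e-13). CCL17, a chemokine that draws T cells, was at 33.9, 32.1, and 36.6 CPM and 176, 191, and 190.5 CPM, respectively (5.43-fold, adjusted p = 3.39e-13). Neither gene had overlapping groups. EPAS1, which ranked between them, encodes the hypoxia-inducible factor 2 alpha and was at 10.55, 9.715, and 10.8 CPM in WT and 60.5, 74.8, and 67.97 CPM in CGN-KO libraries (6.545-fold, adjusted p = 2.15e-11).

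Next in size came 2 regulators that were low in WT cells. MAF, a leucine zipper transcription factor, was at 1.24, 0.607, and 0.669 CPM in WT and 9.298, 6.02, and 7.204 CPM in CGN-KO libraries, and FYN, a Src family kinase that acts at adhesions, at 3.71, 2.37, and 2.77 CPM and 21.7, 13.9, and 16.1 CPM. STRA6, the membrane receptor that takes up retinol from its carrier RBP4, was at 15.97, 14.9, and 21.4 CPM in WT and 77.5, 82.85, and 73.6 CPM in CGN-KO libraries (4.475-fold, adjusted p = 1.07e-09). In each of these 3 genes, every CGN-KO library was more than 3 times as high as the highest WT library.

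The remaining 8 of the 15 largest rises had log2 fold changes between 1.85 and 2.07. GPX2, an epithelial glutathione peroxidase, rose 4.585-fold, and SCGB1A1, a secretory protein of airway epithelium, 5.34-fold. H19, an imprinted long noncoding RNA, was the most abundant of the 15 in CGN-KO cells, at 191, 143, and 182 CPM in WT and 832, 607, and 625 CPM in CGN-KO libraries. Its neighbour IGF2, the imprinted growth factor, was also called higher (log2 fold change 1.37 ± 0.13) and is named here after its values were seen. C3, the central complement component, was at 51.5, 39.4, and 40.8 CPM in WT and 186, 156, and 153 CPM in CGN-KO libraries. BASP1, a membrane protein that organizes cortical actin, and SLC6A12, a betaine transporter of kidney cells, rose 5.95-fold and 3.76-fold. ZPLD1, a zona pellucida domain protein, rose 5.57-fold, and DLA-DMB is described with its group below.

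Among the falls, S100A16, a calcium-binding protein of the S100 family, changed most on the log2(CPM + 1) scale. It was at 31.6, 32.1, and 35.1 CPM in WT and at 2.21, 0.395, and 1.71 CPM in CGN-KO libraries, 22.9-fold lower, with a log2 fold change of -3.88 ± 0.21 (adjusted p = 4.40e-09). Its message was lowest in replicate 2 of the KO line. PRRG4, a membrane protein with a Gla domain named after its values were seen, was nearer to 0, at 1.355, 1.77, and 1.48 CPM in WT and 0.0989, 0.0988, and 0 CPM in CGN-KO libraries. CTBS, a lysosomal enzyme that degrades chitobiose in glycoproteins, fell from 14.1, 15.6, and 14.2 CPM to 2.21, 1.43, and 1.59 CPM. TFAP2A, a transcription factor of surface ectoderm and neural crest, fell from 7.25, 8.56, and 8.17 CPM to 0.956, 0.5925, and 0.472 CPM, that is, from clearly expressed to below 1 CPM in every CGN-KO library. NXPH2, a neurexophilin, fell from 10.3, 10.4, and 10.75 CPM to 1.32, 1.28, and 1.535 CPM, and CGN itself came next in size.

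The other 10 large falls held 2 genes of matrix turnover, the collagenase MMP13 (3.603-fold lower) and the protease inhibitor TIMP1 (3.72-fold lower). FST, the secreted activin antagonist follistatin, was at 133, 192, and 171 CPM in WT and 35.4, 57.5, and 59.05 CPM in CGN-KO libraries. SLC7A11, which imports cystine for glutathione synthesis, fell 3.95-fold, and ETV1, an ETS factor induced by ERK signalling, 3.895-fold. GPNMB, a transmembrane glycoprotein of lysosomes and melanosomes, fell 4.48-fold, and RCN1, a calcium-binding protein of the endoplasmic reticulum, 3.14-fold. TM4SF18, a small membrane protein with 4 spans, fell 4.04-fold, and GLT1D1, a glycosyltransferase-like protein, 7.95-fold. STEAP1, a metalloreductase, fell 3.69-fold, and its neighbour STEAP2, named after its values were seen, was at 28.9, 29.5, and 33.7 CPM in WT and 10.95, 8.49, and 10.04 CPM in CGN-KO libraries.

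**Figure D2:**
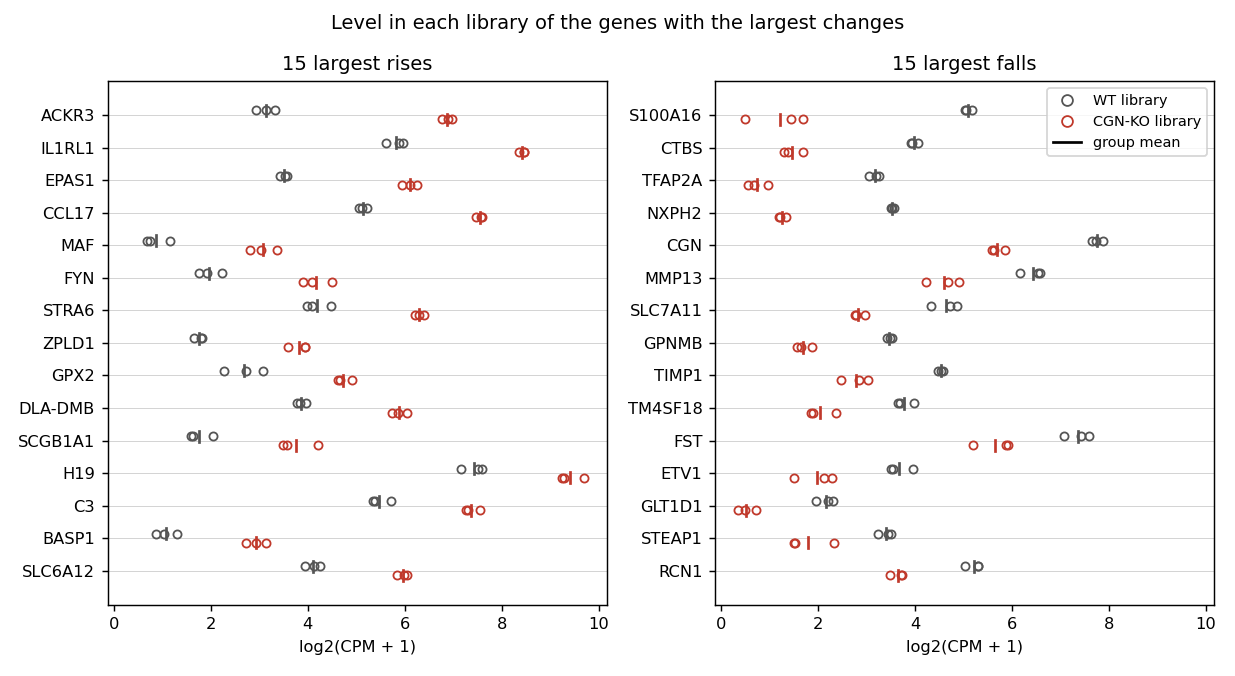
Level in log2(CPM + 1) of the 15 genes with the largest rises and the 15 with the largest falls, with 1 circle per library and a bar at the mean of 3 libraries. The WT (grey) and CGN-KO (red) circles of every gene are apart, with the widest CGN-KO spread for S100A16.

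In the list of interferon response and antigen presentation genes, members that fell outnumbered those that rose. Of its 48 tested members 7 rose and 18 fell (37.5% lower against 7.87% of all genes), with a median log2 fold change of -0.14. Without WT replicate 1, 10 members were lower, and without CGN-KO replicate 3, 11 were.

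The members that rose most were those of MHC class II, the complex that presents peptides from endosomes to T helper cells. DLA-DRA, the alpha chain of the dog class II molecule DR, was at 71.8, 61.1, and 68.2 CPM in WT and 219, 179, and 190.0 CPM in CGN-KO libraries (2.92-fold, adjusted p = 1.33e-09). DLA-DMB, a chain of the chaperone that loads peptides, was at 14.55, 12.75, and 13.3 CPM and 65.5, 52.1, and 56.8 CPM (4.298-fold), and its partner DLA-DMA at 8.31, 6.79, and 6.69 CPM and 19.7, 18.1, and 17.2 CPM. CD74, the invariant chain that guides class II molecules, was the most abundant of the class II genes, with 986, 857, and 906 CPM in WT and 1773, 1656, and 1695 CPM in CGN-KO libraries (1.86-fold). CIITA, the transcription factor that switches on class II genes, rose 1.82-fold, from 11.5, 12.2, and 13.8 CPM to 22.5, 25.1, and 20.6 CPM. All of these genes had KO and WT values that did not overlap. HLA-DRB1 and DLA-DQA1, named after their values were seen, rose 2.600-fold and 2.41-fold, and reads of these variable loci may be shared with close copies.

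Among the members that fell were genes induced by type I interferon, which restrain viruses. DDX60, a helicase of this set, was at 23.9, 20.2, and 22.5 CPM in WT and 9.43, 6.86, and 7.204 CPM in CGN-KO libraries (2.83-fold lower, adjusted p = 6.05e-06). IFIT3, which binds viral RNA with its relatives, was at 28.9, 25.6, and 27.2 CPM and 15.9, 13.9, and 14.2 CPM, and CMPK2, a mitochondrial nucleotide kinase, at 286, 244, and 252 CPM and 159, 129, and 146 CPM. ISG20, an exonuclease, fell 2.75-fold. The falls of the other members were smaller, down to a log2 fold change of -0.23 for the peptide transporter TAP1, the smallest of the 18.

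The list of cytokines, chemokines, and NF-kB feedback genes held 10 members that rose and 6 that fell of 38 tested, against 11.2% and 7.87% of all genes. Beside ACKR3, IL1RL1, and C3, which are described above, the members with the smallest adjusted p were BIRC3 and CFB. CFB, complement factor B, was at 18.5, 14.3, and 16.25 CPM in WT and 52.1, 38.96, and 42.3 CPM in CGN-KO libraries (2.72-fold, adjusted p = 2.49e-06). BIRC3, an inhibitor of apoptosis that NF-kB induces, was at 76.96, 91.6, and 81.96 CPM and 36.2, 42.5, and 45.6 CPM (2.01-fold lower, adjusted p = 1.15e-06). C3 and CFB both belong to complement, and LCN2, an iron-withholding defence protein, rose with them, at 5.83, 3.15, and 4.11 CPM in WT and 22.98, 10.8, and 12.1 CPM in CGN-KO libraries. CCL2, a chemokine for monocytes, and RELB and NFKB2, subunits of NF-kB, fell with BIRC3, with log2 fold changes of -0.76, -0.35, and -0.23. LCN2 and these 3 genes were named after their values were seen, as was LBP, which binds bacterial lipopolysaccharide and rose from 16.1, 16.1, and 14.5 CPM to 47.05, 55.6, and 50.3 CPM.

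**Figure D3:**
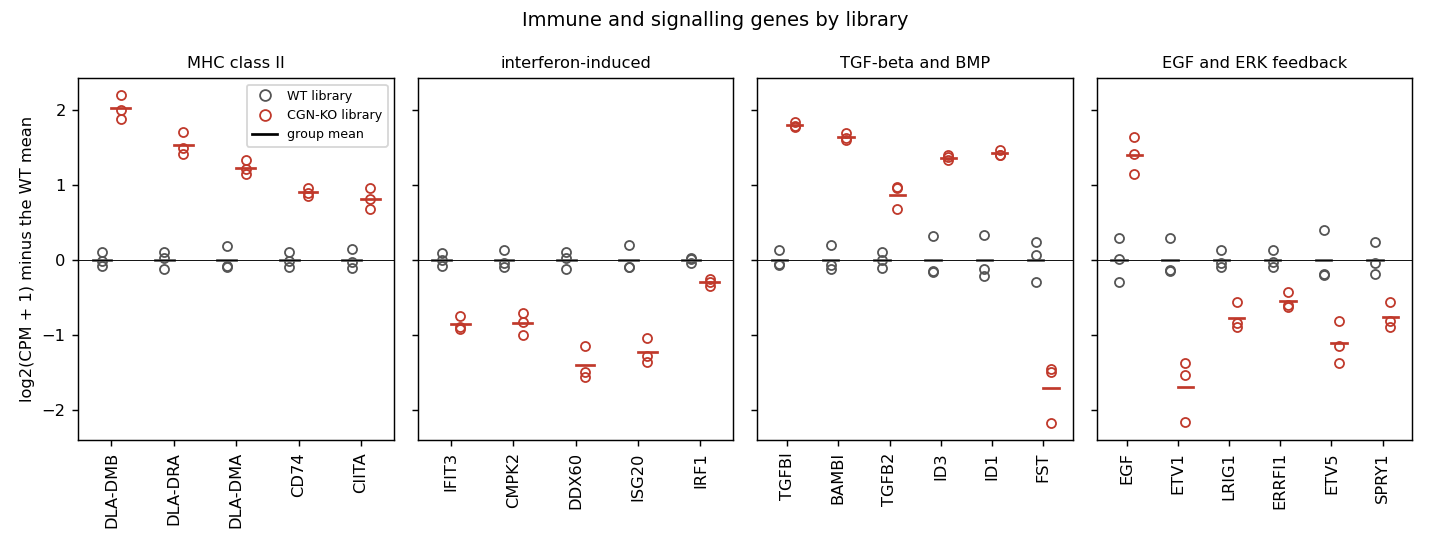
Deviation of each library from the WT mean, in log2(CPM + 1), for genes of MHC class II, interferon-induced genes, TGF-beta and BMP genes, and EGF and ERK feedback genes. Circles are single libraries and bars are means of 3. MHC class II genes lie above 0 and interferon-induced genes below 0 in all CGN-KO libraries, and FST and EGF lie opposite to the other genes of their panels. The genes shown are a selection made with results of these data known. Of the 48 tested members of the interferon response and antigen presentation list, 18 fell and 7 rose. NRG1 and EGFR, which rose like EGF, are not shown.

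TGF-beta and BMP proteins are secreted growth factors that signal through SMAD transcription factors, and feedback inhibitors of the pathway are among its own target genes. Of 40 tested members 17 rose (42.5%) and 2 fell, with a median log2 fold change of 0.10, and 1 fell without WT replicate 2, CGN-KO replicate 2, or CGN-KO replicate 3. Among the rises were BMP2, BMP7, ID1, and SNAI1, which lie on 1 chromosome with many higher genes, the one that holds MYL9, and without its genes 13 of 36 members rose with a median of 0.059. TGFBI, a matrix protein induced by TGF-beta, was at 34.1, 29.6, and 29.9 CPM in WT and 113, 109, and 109.7 CPM in CGN-KO libraries (3.55-fold, adjusted p = 9.58e-11). BAMBI, a decoy receptor, was at 1.355, 0.883, and 0.956 CPM and 5.605, 5.23, and 5.31 CPM (5.06-fold, adjusted p = 1.59e-07). ID3, a BMP target that blocks differentiation factors, was at 4.95, 4.86, and 7.17 CPM and 16.02, 16.2, and 15.5 CPM (2.81-fold, adjusted p = 5.19e-06). The 3 CGN-KO values of each of these genes were close together and above all WT values. TGFB2, a ligand, rose from 27.75, 32.35, and 29.9 CPM to 48.3, 59.05, and 59.3 CPM, while the antagonist FST fell, as given above.

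Other members were named after their values were seen. ID1, another BMP target, rose 2.685-fold (log2 fold change 1.42 ± 0.15), and the ligands BMP2, BMP7, and BMP4 had log2 fold changes of 0.79, 0.43, and 0.47. The feedback inhibitors SMAD7 and SMAD6 had log2 fold changes of 0.83 and 0.39. Among the receptors BMPR1B rose (0.39 ± 0.078), and BMPR2, BMPR1A, TGFBR1, and TGFBR2 did not pass the test.

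The EGF receptor family signals through the kinase ERK, whose target genes include the ETS factors of the PEA3 group and inhibitors of the pathway (Sprouty proteins, dual-specificity phosphatases, ERRFI1, LRIG1). Of the 22 tested members of this list 12 fell (54.55% against 7.87% of all genes) and 4 rose, with a median log2 fold change of -0.30. This was the largest share of lower genes among the 32 lists, which were written with earlier results of these data known. ETV1 was at 14.4, 10.4, and 10.6 CPM in WT and 3.89, 1.83, and 3.37 CPM in CGN-KO libraries (adjusted p = 1.23e-05), and ETV5 at 11.5, 7.23, and 7.36 CPM and 4.385, 2.67, and 3.31 CPM (adjusted p = 1.98e-04). LRIG1, which promotes receptor degradation, was at 27.5, 23.4, and 24.3 CPM and 16.55, 12.9, and 13.5 CPM, and ERRFI1, which blocks the receptor kinase, at 142, 126, and 120.4 CPM and 96.01, 84.6, and 83.1 CPM. SPRY1, SPRY2, DUSP5, DUSP6, and ETV4, all named after their values were seen, had log2 fold changes of -0.76, -0.43, -0.53, -0.31, and -0.38.

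Ligands of the family went both ways. EGF was at 39.01, 25.8, and 31.97 CPM in WT and 101, 71.55, and 86.2 CPM in CGN-KO libraries (2.67-fold higher, adjusted p = 7.34e-06). NRG1, the ligand of ERBB3 and ERBB4, had a log2 fold change of 0.79 ± 0.14, and EREG, a further ligand, one of -0.52 ± 0.12. Among the receptors EGFR had a log2 fold change of 0.24 ± 0.08, and ERBB2, ERBB3, and ERBB4 did not pass the test. These 6 genes other than EGF were named after their values were seen.

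**Figure D4:**
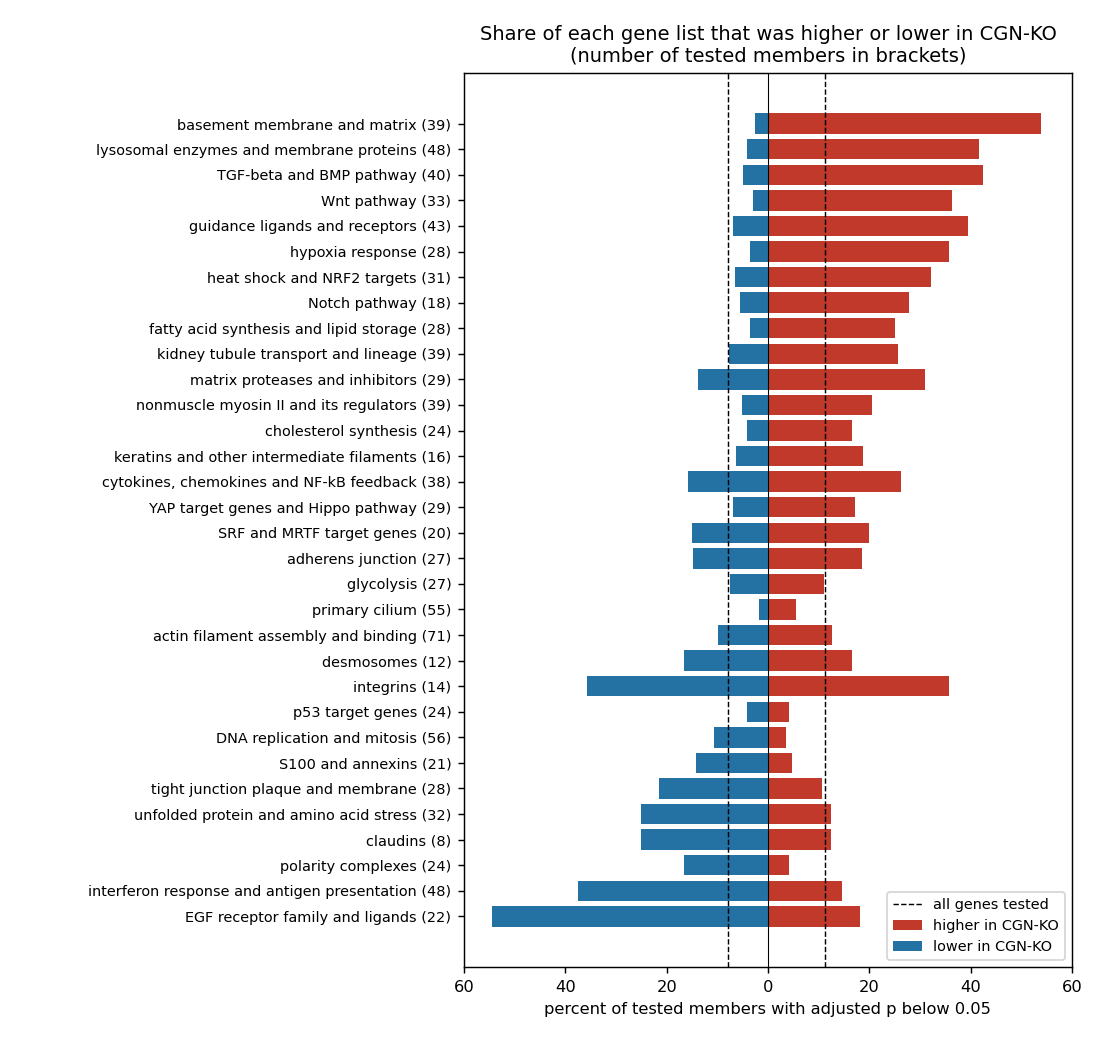
Percent of the tested members of 32 gene lists that were higher (right, red) or lower (left, blue) in CGN-KO by adjusted p, with dashed lines at the shares of all genes tested (11.2% and 7.87%). Basement membrane and matrix has the largest share of higher members (53.85%). The EGF receptor list, which also holds ERK target genes and inhibitors of the pathway, has the largest share of lower ones (54.55%). The lists were written with earlier results of these data known, so their shares and ranks depend in part on the choice of members.

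Most of the matrix genes that changed were higher. Of 39 tested genes of basement membrane and matrix 21 rose (53.85% against 11.2%) and 1 fell, and the median log2 fold change was 0.24. COL5A1, a chain of fibrillar collagen V, was at 81.3, 87.9, and 90.8 CPM in WT and 150.4, 192, and 181 CPM in CGN-KO libraries (2.01-fold, adjusted p = 1.71e-07). LOXL2, which crosslinks collagen, was at 112, 113, and 113 CPM and 208, 232, and 229.6 CPM, and VCAN, the proteoglycan versican, at 95.4, 87.8, and 87.4 CPM and 155, 164, and 169.5 CPM. GPC4, a cell surface heparan sulfate proteoglycan, rose 2.59-fold, and FBLN5, an elastic fiber protein, 1.89-fold. FN1, fibronectin, was at 457, 452, and 409 CPM in WT and 679, 955, and 910.1 CPM in CGN-KO libraries, and was named after its values were seen. It was the most abundant of the matrix genes named. The 1 member that fell was LTBP1, which stores latent TGF-beta in the matrix, at 279, 303, and 286 CPM and 187, 212, and 209 CPM. By symbol, 6 of 18 collagen genes (COL) rose and none fell. PDGFRA, a fibroblast marker, rose in the same libraries (0.81 ± 0.27, adjusted p = 0.0489), its level was 5.88 to 11.1 CPM in CGN-KO libraries, and its part in the matrix values was not tested.

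Matrix proteases and their inhibitors were mixed, with 9 of 29 higher and 4 lower. The lower members included PLAU, the urokinase that activates plasminogen, at 199, 215, and 204 CPM in WT and 79.3, 90.2, and 88.9 CPM in CGN-KO libraries (2.39-fold lower, adjusted p = 2.02e-08). MMP13 fell from 93.8, 70.4, and 92.2 CPM to 29.1, 17.6, and 24.5 CPM, TIMP1 from 22.9, 21.2, and 22.2 CPM to 7.09, 4.54, and 6.200 CPM, and ADAMTS9, a protease of proteoglycans, from 60.5, 63.7, and 59.02 CPM to 32.97, 34.3, and 36.7 CPM. These 4 were all the lower members of the list, and each had every CGN-KO value below every WT value. SPINT2, an inhibitor of membrane serine proteases, rose 1.31-fold. Of 14 tested integrins 5 rose and 5 fell. ITGB3 and ITGB5, beta subunits that pair with alpha V, rose 1.498-fold and 1.54-fold. ITGA6 and ITGA2, alpha subunits of laminin and collagen receptors, fell 1.36-fold and 1.515-fold, and ITGB8 fell 1.41-fold. By symbol, 4 of 8 ITGA genes fell and 1 rose, and without WT replicate 2 the number of lower integrins was 3.

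Axon guidance molecules also act between epithelial cells, where semaphorins signal through plexins and neuropilins. Of 43 tested 17 rose (39.5%) and 3 fell, with a median log2 fold change of 0.18. The 2 neuropilins, coreceptors for class 3 semaphorins and VEGF, moved in opposite directions. NRP1 was at 2.475, 3.04, and 2.96 CPM in WT and 9.89, 10.8, and 9.57 CPM in CGN-KO libraries (3.57-fold higher, adjusted p = 1.16e-08), and NRP2 at 116, 105, and 98.2 CPM and 55.5, 48.3, and 52.6 CPM (2.04-fold lower, adjusted p = 3.10e-08). SEMA4D rose 1.98-fold, the ligand SLIT2 1.43-fold, and the ephrin receptor EPHB2 1.66-fold. By symbol, 8 of 12 tested semaphorin genes (SEMA) rose and 1 fell, the largest share of higher genes among the 196 families of 8 or more members that share the letters of their symbol.

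The Wnt pathway list held 12 of 33 members that rose (36.4%) and 1 that fell, and 0 fell without CGN-KO replicate 2 or 3. RNF43, a ligase that removes Wnt receptors and is itself induced by Wnt signals, was at 5.72, 5.02, and 4.59 CPM in WT and 11.6, 11.65, and 12.99 CPM in CGN-KO libraries (2.36-fold, adjusted p = 7.40e-07). WLS, which carries Wnt proteins to the cell surface, rose 1.46-fold, the coreceptor LRP5 1.39-fold, the secreted protein DKK3 2.11-fold, and the transcription factor TCF7 1.34-fold. AXIN2, a standard target gene of the pathway named after its values were seen, was at 2.65, 1.27, and 2.39 CPM in WT and 6.03, 4.54, and 3.602 CPM in CGN-KO libraries. CTNNB1, which encodes beta-catenin, the protein shared by Wnt signalling and adherens junctions, rose 1.301-fold (adjusted p = 6.58e-04).

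In the Notch pathway, 5 of 18 tested members rose and 1 fell. Without WT replicate 2, and likewise without WT replicate 3, 3 were higher. JAG1, a ligand, was at 82.4, 79.3, and 77.85 CPM in WT and 139, 169.8, and 165 CPM in CGN-KO libraries (1.98-fold, adjusted p = 5.77e-08). The ligand JAG2 went the other way, 1.604-fold lower (adjusted p = 0.00544). LFNG, which modifies Notch receptors, rose 1.87-fold, and NOTCH2 1.19-fold.

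Apart from CGN and CLDN2, no gene of the tight junction, claudin, adherens junction, desmosome, or polarity lists was called at 2-fold. Of 28 tested tight junction genes 3 rose (10.7%) and 6 fell (21.4%), with a median log2 fold change of 0.016. The higher count was 1 without WT replicate 2, without CGN-KO replicate 3, and in a fit of the 6 libraries, and the lower count was 2 without replicate 1 of both genotypes (a setting chosen after seeing the data). A list of 28 genes was written for proteins of the study, and some of these, such as CLDN2, the paper names without measuring them. By mRNA 6 of the 28 rose and 7 fell, and 4 were lower without CGN-KO replicate 2. CGN itself is among those that fell. CGNL1, its paralog, was at 12.3, 9.22, and 7.74 CPM in WT and 6.92, 5.04, and 6.02 CPM in CGN-KO libraries (1.625-fold lower, adjusted p = 0.02005). Its groups did not overlap, and the call was lost in 4 of 19 alternatives, all of which left out 1 or 2 libraries. OCLN, occludin, fell 1.15-fold, and JAM3, a junctional adhesion molecule, rose 1.62-fold. TJP1, which encodes ZO-1, was at 153, 141, and 136 CPM in WT and 128, 135, and 145 CPM in CGN-KO libraries (adjusted p = 0.407), and TJP3 (ZO-3) had an adjusted p of 0.2999.

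Claudins form the strands of the tight junction. Of 8 tested, CLDN2, which makes a pore for cations, rose, and CLDN16 and CLDN3 fell. CLDN2 was at 13.3, 5.52, and 9.22 CPM in WT and 43.1, 15.6, and 20.55 CPM in CGN-KO libraries (2.83-fold, adjusted p = 0.00897). Replicate 1 was the highest library of both genotypes for this gene, and the lowest CGN-KO value was close to the highest WT value. Without CGN-KO replicate 1 its log2 fold change was 0.94 (adjusted p = 0.0321) in place of 1.35, and without WT replicate 2 the adjusted p was 0.0579, so that no claudin was higher. CLDN16 fell 1.48-fold. CLDN3 was at 37.1, 46.4, and 56.96 CPM and 39.1, 32.3, and 27.4 CPM, with overlapping groups and an adjusted p of 0.0486, and its call was lost without WT replicate 2 or 3 and without CGN-KO replicate 2 or 3.

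Of 27 adherens junction genes 5 rose and 4 fell, and 3 were higher without WT replicate 2 or without CGN-KO replicate 1. NECTIN3, an adhesion molecule, rose 1.68-fold (adjusted p = 1.89e-06), and CDH3, P-cadherin, fell 1.403-fold (adjusted p = 1.22e-04). CDH1, E-cadherin, was at 1005 to 1142 CPM in WT and 1072 to 1198 CPM in CGN-KO libraries and did not pass the test, nor did CTNNA1 or CTNND1. PLEKHA7, the adherens junction protein that binds paracingulin, was at 5.54, 6.68, and 5.59 CPM and 3.165, 3.604, and 3.25 CPM (1.78-fold lower, adjusted p = 9.15e-04). TSPAN33, its membrane partner, rose 1.46-fold, and AFDN fell 1.14-fold, while PDZD11, PLEKHA5, and PLEKHA6 did not pass the test. CAMSAP2, which holds microtubule minus ends, fell 1.27-fold. CAMSAP3, its relative in epithelia, rose 1.25-fold, a call that was lost in 6 of 19 alternatives. Of 12 desmosome genes 2 rose (DSP, 1.24-fold, and PPL, 1.199-fold) and 2 fell (DSC2, 1.29-fold, and DSG3, 1.54-fold), with 1 lower without WT replicate 1, WT replicate 3, or CGN-KO replicate 2. Of 24 polarity genes 1 rose, PODXL (1.31-fold), and 4 fell, among them PARD3 (1.19-fold), with 1 lower without WT replicate 2 or CGN-KO replicate 2 and 2 higher without WT replicate 1, WT replicate 3, or CGN-KO replicate 1.

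For the actomyosin that cingulin binds, 8 of 39 tested genes of nonmuscle myosin II and its regulators rose and 2 fell. Of the 3 heavy chains, MYH9 (NM2A) and MYH10 (NM2B) did not pass the test, with adjusted p of 0.815 and 0.303. MYH14 (NM2C) was at 94.5, 78.9, and 84.9 CPM in WT and 136, 129.5, and 129 CPM in CGN-KO libraries (1.53-fold higher, adjusted p = 4.18e-04). Of the light chains MYL9 was at 10.5, 9.88, and 13.1 CPM and 22.1, 25.5, and 24.1 CPM (2.14-fold higher, adjusted p = 1.45e-06), and MYL6B rose 1.75-fold. The more abundant MYL12B stayed within 412 to 419 CPM in WT and 418 to 437 CPM in CGN-KO libraries and did not pass the test. ROCK2, a kinase that activates myosin II, was at 126, 121, and 111 CPM and 79.99, 74.02, and 81.02 CPM (1.53-fold lower, adjusted p = 5.97e-06). SHROOM4 rose 1.496-fold and CDC42BPA, a kinase of myosin light chains, 1.27-fold, and the GTPase regulators ARHGEF2 (GEF-H1) and RACGAP1 did not pass the test.

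Of 71 genes of actin assembly and binding 9 rose (12.7%) and 7 fell (9.86%), shares near those of all genes. CNN2, a calponin that stabilizes filaments, was at 9.31, 9.495, and 9.605 CPM in WT and 20.97, 21.3, and 19.6 CPM in CGN-KO libraries (2.18-fold, adjusted p = 1.31e-07). DSTN, a filament-severing factor, rose 1.47-fold, and PFN2, a profilin, 1.42-fold. The cytoplasmic actins ACTB and ACTG1 did not pass the test. Target genes of SRF and its cofactors MRTF gave 4 higher and 3 lower of 20, with CNN2 and MYL9 higher and FHL2 (1.26-fold) and FHL1 (3.42-fold) lower. FHL1 was below 1 CPM in all CGN-KO libraries. Of 29 Hippo pathway genes and YAP targets 5 rose and 2 fell, and 8 were higher without CGN-KO replicate 1. CTGF, a YAP target, rose 1.63-fold (adjusted p = 7.88e-05), and CYR61, the other standard target, named after its values were seen, was at 928, 1109, and 1031 CPM in WT and 815, 985, and 952 CPM in CGN-KO libraries (adjusted p = 0.176). Of 16 genes of intermediate filaments 3 rose (KRT14, 1.47-fold, KRT16, 1.53-fold, and KRT19) and 1 fell (KRT18), with 2 lower without WT replicate 1. Among symbols that start with KRT, 5 of 11 tested rose (45.5% against 11.2% of all genes) and 1 fell. KRT75 and KRT81, which rose, are not in the list.

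Genes of the lysosome that changed were mostly higher. Of 48 tested 20 rose (41.7% against 11.2%) and 2 fell, and without CGN-KO replicate 3 the higher count was 13. CTSD, cathepsin D, was at 381, 325, and 373 CPM in WT and 817, 678, and 666 CPM in CGN-KO libraries (2.003-fold, adjusted p = 1.61e-06). CTSZ, a further cathepsin, rose 1.61-fold, GM2A, the activator of ganglioside breakdown, 1.93-fold, and ASAH1, acid ceramidase, 1.32-fold. CTBS is one of the 2 members that fell, and it changed more than any member that rose. TFEB, the master regulator of lysosomal genes, and TFE3 did not pass the test (adjusted p = 0.481 and 0.0756) and were named after their values were seen.

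The hypoxia list held 10 of 28 members that rose (35.7%) and 1 that fell (2 without CGN-KO replicate 1), and EPAS1 changed most. CA12, a carbonic anhydrase, rose 1.84-fold, ARNT2, a partner of hypoxia-inducible factors, 1.57-fold, PLOD2, a collagen lysine hydroxylase, 1.36-fold, and PLOD1 1.29-fold. The other members that rose had log2 fold changes of at most 0.69 (ANGPTL4), and the targets CA9, ADM, and EGLN3 did not pass the test (chosen after their values were seen). Of 31 heat shock genes and targets of NRF2, the regulator of the antioxidant response, 10 rose and 2 fell, with 1 lower without WT replicate 2, CGN-KO replicate 2, or CGN-KO replicate 3. Beside GPX2 the rises included those of FTL, ferritin light chain (1.47-fold), HSPB1, a small heat shock protein (1.95-fold), and GSTP1, a glutathione transferase (1.32-fold).

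The unfolded protein and amino acid stress list had 8 of 32 members lower and 4 higher, and without CGN-KO replicate 1 there were 5 lower and 7 higher, and without WT replicate 2 there were 5 lower and 2 higher. SLC7A11 was at 27.99, 25.2, and 19.2 CPM in WT and 6.76, 5.83, and 5.73 CPM in CGN-KO libraries, and TRIB3, DDIT3, and ASNS, all targets of the amino acid response factor ATF4, fell 1.48-fold, 1.501-fold, and 1.39-fold. CALR, a chaperone of the endoplasmic reticulum, rose 1.26-fold. SLC7A11 is also known as a target of NRF2, and 1 further target, the exporter ABCC2, fell (-0.94 ± 0.20, named after its values were seen).

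Of kidney tubule transport and lineage genes 10 of 39 rose and 3 fell, with 5 higher without WT replicate 2 and 6 without CGN-KO replicate 1. OVOL2, an epithelial transcription factor, rose 1.59-fold (adjusted p = 6.21e-05), and FXYD3, a regulator of ion transport, 1.95-fold. The largest fall of the list was that of TFAP2A (log2 fold change -2.43), whose values are given above. PAX2, a regulator of the renal lineage, fell 1.42-fold, and PAX8, its relative, rose 1.165-fold. Of fatty acid genes 7 of 28 rose and 1 fell (2 without CGN-KO replicate 1), and the rises included FADS2 (1.34-fold), PPARG (1.37-fold), and the lipid droplet proteins PLIN2 (1.29-fold) and PLIN3 (1.56-fold). The cholesterol list gave 4 higher, such as DHCR7 (1.28-fold), and 1 lower of 24, with 0 lower when either of WT replicates 1 and 2 or CGN-KO replicates 1 and 3 was left out. Glycolysis gave 3 higher and 2 lower of 27, with the largest rise for PFKFB3 (1.57-fold).

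Of 56 genes of DNA replication and mitosis 2 rose and 6 fell, with PCNA, the replication clamp, 1.398-fold higher and CDC6, which loads the replicative helicase, 1.35-fold lower, and 1 was lower without WT replicate 2, 3 without CGN-KO replicate 1, and 3 without CGN-KO replicate 3. Both rises of this list, PCNA and AURKA, lie on the chromosome of MYL9. Of 24 p53 target genes 1 rose, CDKN1A (1.18-fold), and 1 fell, PLK2 (1.27-fold). The former call was lost without WT replicate 2, CGN-KO replicate 2, or CGN-KO replicate 3, and the latter without WT replicate 2 or CGN-KO replicate 1. Of 55 cilium genes 3 rose, the largest PKHD1 (1.54-fold), and 1 fell, with 0 lower when either of WT replicates 2 and 3 or CGN-KO replicates 2 and 3 was left out. Of 21 S100 and annexin genes 1 rose (S100A1) and 3 fell, and 5 were lower without CGN-KO replicate 1. The higher count was 0 without WT replicate 2, CGN-KO replicate 1, or CGN-KO replicate 3, and 2 without WT replicate 3 or CGN-KO replicate 2. ANXA13, an annexin of polarized epithelia, was at 172, 136, and 142 CPM in WT and 76.9, 56.1, and 63.1 CPM in CGN-KO libraries (2.29-fold lower, adjusted p = 1.36e-06), and S100A14, another S100 protein, fell 1.83-fold. Families by symbol can hold genes that share only the letters. The symbols of translation initiation factors (EIF) had 10 of 50 members lower and 1 higher. These counts include EIF2AK2, EIF4EBP1, and EIF4EBP2, which are not initiation factors. The symbols of solute carriers (SLC) had 41 of 195 higher and 17 lower, beside 11.2% higher and 7.87% lower of all genes.

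Several genes named above lie on the dog chromosome that holds MYL9, as RefSeq orders its genes in assembly UU_Cfam_GSD_1.0. On it 138 of 317 tested genes (43.5%) were higher in CGN-KO and 7 lower, against 11.2% higher of all genes. PCNA, DSTN, JAG1, and OVOL2 lie in the stretch from NAPB to PCNA, where 47 of 50 genes were higher, and CTSZ lies in the stretch from ADNP to PCMTD2, where 54 of 67 were. MYL9 itself lies outside these stretches. PCNA had log2 fold changes of 0.48 in the CGN-KO line, 0.52 in the CGNL1-KO line, and 0.53 in the double-KO line, and JAG1 of 0.97, 0.92, and 0.85, respectively, against the same WT libraries. What part of the rises of these genes is shared with their neighbours was not tested. Without the genes of this chromosome, 119 genes were called higher and 42 lower.

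To ask where the CGN-KO line differed from the line lacking the paralog, CGN-KO and CGNL1-KO libraries were compared directly in the same fit, which needs no WT library. The calls against WT and this comparison share the CGN-KO libraries, so the counts of called genes are a description. Over all genes 656 (5.19%) differed by adjusted p and 82 (0.648%) were called at 2-fold. Of the 166 genes called against WT, 104 differed between the 2 KO lines by adjusted p, and 46 were called at 2-fold. Of the 124 genes called higher, 116 had a positive difference between CGN-KO and CGNL1-KO cells, and 78 were higher in CGN-KO by adjusted p. Of the 42 called lower, 24 were lower than in CGNL1-KO cells by adjusted p.

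STRA6, the retinol receptor, was at 18.2, 17.6, and 15.9 CPM in CGNL1-KO libraries, within the WT range of 14.9 to 21.4 CPM, against 73.6 to 82.85 CPM in CGN-KO libraries, and the difference between the lines was 2.12 ± 0.10 on the log2 scale (adjusted p = 2.09e-09). TFAP2A was at 8.42, 6.36, and 6.37 CPM in CGNL1-KO libraries, near its WT level, and differed by -2.27 ± 0.15 (adjusted p = 7.33e-08). The differences were -1.26 ± 0.08 for PLAU, 1.34 ± 0.15 for EGF, and 1.85 ± 0.20 for MAF. Against WT, the log2 fold changes of these 5 genes in CGNL1-KO cells lay between -0.17 and 0.36, and none passed the test. In double-KO cells, measured against the same WT libraries, the log2 fold changes were 1.73 for STRA6, -2.695 for TFAP2A, -1.39 for PLAU, 0.98 for EGF, and 0.65 for MAF.

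Genes of the TGF-beta and BMP list were among these differences. BAMBI, ID3, and FST differed by 1.31 ± 0.13, 1.11 ± 0.14, and -1.32 ± 0.18 between the lines, with adjusted p of 9.53e-06, 1.40e-04, and 2.36e-04. TGFBI differed by 1.04 ± 0.073, and TGFB2, at -0.058 ± 0.076 (adjusted p = 0.766), did not pass the test. ACKR3, IL1RL1, EPAS1, and CCL17 were higher in CGN-KO than in CGNL1-KO cells, by 1.77, 0.61, 0.87, and 1.31, with adjusted p of 1.16e-08, 9.37e-05, 2.57e-05, and 1.59e-09. Each of these differences was smaller than the rise of the gene in CGN-KO against WT, so its CGNL1-KO level also lay above WT. Against WT, the log2 fold changes in CGNL1-KO cells were 1.99 for ACKR3 and 1.10 for CCL17.

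For other genes a difference between the lines was not detected. CTBS differed by -0.31 ± 0.13 (adjusted p = 0.213), TIMP1 by -0.066 ± 0.13, STEAP1 by 0.054 ± 0.17, NRP1 by -0.069 ± 0.093, MYL9 by 0.14 ± 0.10, and ANXA13 by 0.059 ± 0.11, none past the test. S100A16 was lower in CGNL1-KO than in CGN-KO cells, at 0.2902, 0.361, and 0.3745 CPM (0.78 ± 0.21, adjusted p = 0.0472). TM4SF18 was also lower in the CGNL1-KO line, at 0.813, 0.903, and 1.445 CPM against 2.704, 2.62, and 4.13 CPM in CGN-KO libraries (adjusted p = 0.00201).

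**Figure D5:**
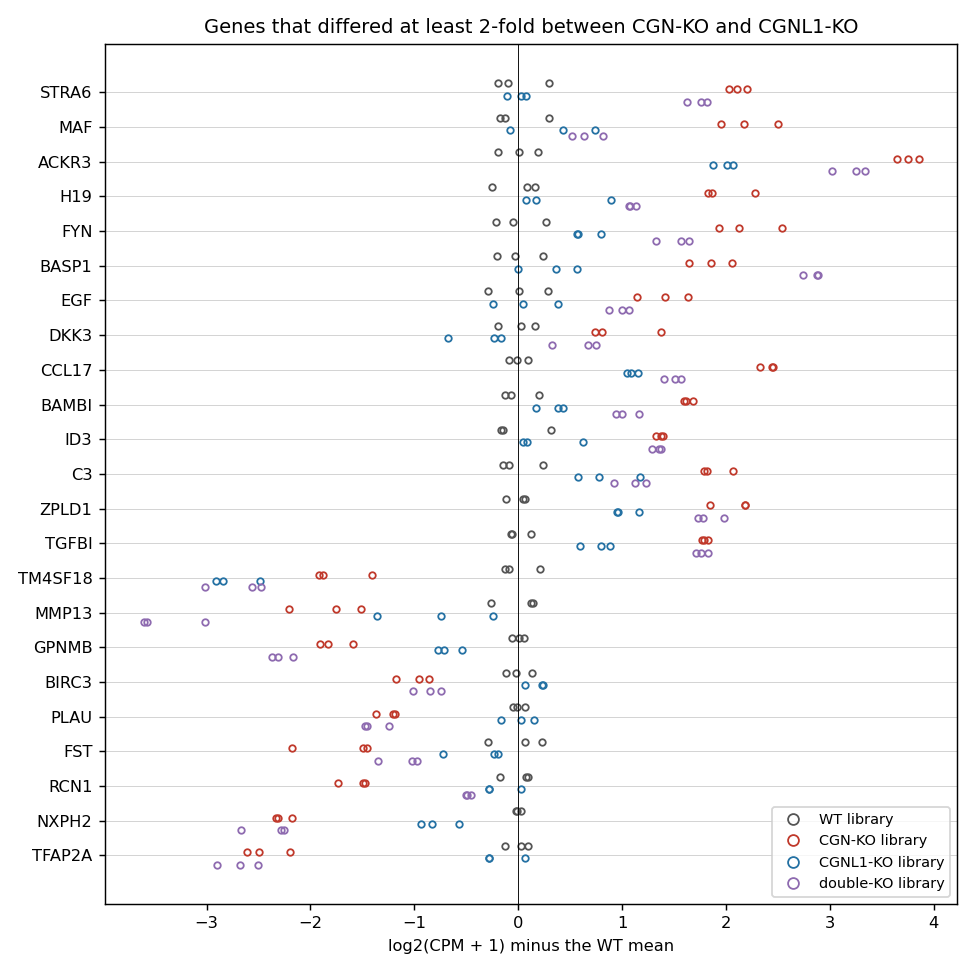
Level of each library minus the WT mean, in log2(CPM + 1), for the 23 genes named by rule, other than CGN and CGNL1, that differed by at least 2-fold and by adjusted p between CGN-KO and CGNL1-KO. Circles are libraries of the 4 genotypes. CGN-KO libraries (red) lie farther from WT than CGNL1-KO libraries (blue) for every gene shown except TM4SF18. Most genes were named for their change in CGN-KO against WT, so this pattern follows in part from the choice.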

How the data were processed

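RNA was measured by poly(A)-selected, stranded RNASeq of 12 MDCKII libraries, 3 for each of 4 genotypes. According to the methods, the authors aligned single reads to the canFam3.1 dog genome with STAR 2.7.0f, counted them per gene with HTSeq 0.9.1, and used genes above 1 CPM in at least 3 libraries for their tests. The authors deposited 1 table of library-normalized counts (CPM, a signal value) for 13672 genes. The deposited table also holds genes under that limit. In every library 100% of the values were whole multiples of the value of 1 read within a tolerance of 0.01, so whole reads were recovered, and their totals give the depth.

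Genes above 1 CPM in at least 3 of the 12 libraries (12650) were tested. CGN-KO and WT were compared with limma 3.58.1 (trend, R 4.3.3) on log2(CPM + 1), with a pseudocount of 1 CPM, in a fit of all 4 genotypes, and p-values were adjusted by Benjamini-Hochberg over all genes tested. A gene was called at an adjusted p below 0.05 and a change of at least 2-fold. Rose and fell, for members of gene lists, mean an adjusted p below 0.05 at any fold. The named genes were the list of genes written for proteins of the study, and the cell type markers. They also held the called genes with nonoverlapping groups and a gene name that ranked 1 to 15 by size of rise or fall. Up to 5 members with the smallest adjusted p in each list were named as well. Gene lists and members were chosen with earlier results of these data known. Of 1297 list symbols 279 were not matched in the table, 7 were matched by an older symbol, and 16 rows carry date-form names and were matched to no list. One double-KO column carries no replicate number and was used as a library of that genotype. Chromosome neighbours were taken from the RefSeq genes of another assembly (UU_Cfam_GSD_1.0), in which 11755 of the tested genes were placed. Alternatives were other pseudocounts, filters, scalings, and subsets of libraries, a replicate block, and the count tests of edgeR 4.0.16 and DESeq2 1.42.0 on the recovered reads. On simulated data with 200 changed genes among 12650, limma called 191 of them (95.5%) and 0 unchanged genes, and 18 unchanged genes passed adjusted p at any fold. The simulation gave all changed genes 1 size of change and all genes the same spread, and drew changed genes only above a minimum level. Its shares therefore do not carry over to these data, where 81 of the 124 genes called higher had a WT mean below 10 CPM. A search of promoters for motifs was not run, and a few named genes are not reported here.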

Additional observations from a re-analysis of the deposited data

Results flagged for a closer look

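For 23 of the genes named by rule, the CGN-KO line differed from the CGNL1-KO line by at least 2-fold and by adjusted p in the direct limma test. Values are CGN-KO minus CGNL1-KO on the log2(CPM + 1) scale. Most genes were named for their change in CGN-KO against WT, so genes that changed mainly in the CGNL1-KO line could hardly enter. Higher in CGN-KO were the retinol receptor STRA6 (2.12), the transcription factor MAF (1.85), the chemokine receptor ACKR3 (1.77), the noncoding RNA H19 (1.61), the kinase FYN (1.55), the actin organizer BASP1 (1.54), the growth factor EGF (1.34), and the secreted protein DKK3 (1.33). The decoy receptor BAMBI (1.31), the chemokine CCL17 (1.31), the BMP target ID3 (1.11), the complement component C3 (1.05), ZPLD1 (1.05), and the matrix protein TGFBI (1.04) were also higher. Lower in CGN-KO were the transcription factor TFAP2A (-2.27), NXPH2 (-1.50), RCN1 (-1.39), the activin antagonist FST (-1.32), urokinase PLAU (-1.26), the apoptosis inhibitor BIRC3 (-1.18), GPNMB (-1.10), and the collagenase MMP13 (-1.04). TM4SF18 fell in both lines and was higher in CGN-KO than in CGNL1-KO by 1.01. Most of the other genes also changed in the same direction in CGNL1-KO cells against WT, many of them by little. The largest of these log2 fold changes were 1.99 for ACKR3, 1.10 for CCL17, 1.02 for ZPLD1, 0.84 for C3, and -0.78 for MMP13 and for NXPH2. Opposite in sign to the change in CGN-KO were only STRA6 (-0.0031), PLAU (0.0058), BIRC3 (0.18), and DKK3 (-0.36). Single libraries within a group of 3 were not tested as outliers.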

How the results depend on the processing

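The counts of called genes depended on the pseudocount and the tool. With a pseudocount of 0.25 CPM 201 genes were called higher and 64 lower, with edgeR on the recovered reads 240 and 69, and with DESeq2 235 and 70, against 124 and 42. When 1 library was left out, the counts were 109 to 134 called higher, 38 to 53 called lower, 1021 to 1287 higher by adjusted p, and 604 to 882 lower by adjusted p. Under the other pseudocount, filters, scalings, and the subsets of genes, these 4 counts were within 1.5 times their main values. Counts within single gene lists moved by more when 1 library was left out, as given with each list. The fall of CGN kept its direction and its side of the threshold in all alternatives run. Nothing states whether same-numbered WT and CGN-KO libraries were handled together. Deviations of same-numbered libraries correlated at 0.373, 0.318, and -0.0822. Replicate 1 was the highest library of both genotypes for 58 of the 124 genes called higher. The main fit used no replicate block. In a fit of the 6 libraries, 1304 genes were higher and 867 lower by adjusted p without the block. With the block, 1849 were higher and 1506 lower, with 124 and 42 called. An effect shared by replicate number was not tested. Without replicate 1 of both genotypes, a setting chosen after seeing the data, 122 were called higher and 50 lower. Of 172 named genes past adjusted p, 28 lost it under at least 1 of 19 alternatives, 0 reversed, and none of the 30 largest changes lost it. Thinned to the smallest library, 123 genes were called higher and 44 lower.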

Other observations

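Some genes crossed 1 CPM between the genotypes. Of the genes past adjusted p, 52 were below 1 CPM in all WT libraries and above it in all CGN-KO libraries, and 16 the reverse. The members named in this paragraph were chosen after their values were seen. IL7R, the interleukin-7 receptor chain, was at 0.3535, 0.883, and 0.5735 CPM in WT and 2.901, 3.26, and 3.602 CPM in CGN-KO libraries. F2, the precursor of thrombin, was at 0.589, 0.552, and 0.382 CPM and 5.74, 3.06, and 3.01 CPM, and ERN2, an endoplasmic reticulum stress sensor of mucosal epithelia, at 0.295, 0.552, and 0.621 CPM and 4.02, 2.47, and 2.07 CPM. ONECUT1, a transcription factor of liver and pancreas, was at 0.4125, 0.552, and 0.621 CPM and 2.01, 1.93, and 1.59 CPM, and SPARC, a matrix glycoprotein, at 0.471, 0.938, and 0.765 CPM and 1.91, 1.93, and 2.24 CPM. All of these stayed at a few CPM in the KO line. In the other direction, GBP5, an interferon-induced GTPase, went from 2.42, 3.15, and 2.198 CPM to 0.5935, 0.444, and 0.5905 CPM, and PRDM16, a transcriptional regulator, from 1.945, 2.04, and 1.34 CPM to 0.363, 0.247, and 0.472 CPM. GBP5 was at 5.86, 2.89, and 4.12 CPM in the CGNL1-KO libraries.

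The genes of this paragraph were also chosen after their values were seen. RBP4, the plasma carrier of retinol, was at 16.5, 12.03, and 14.6 CPM in WT and 65.15, 34.1, and 43.6 CPM in CGN-KO libraries (log2 fold change 1.62 ± 0.19, adjusted p = 1.29e-05). ALDH1A1, which makes retinoic acid, was at 318, 236, and 268 CPM and 854, 505, and 589 CPM (1.22 ± 0.17, adjusted p = 8.73e-05). By symbol, 4 of 12 tested aldehyde dehydrogenases (ALDH) rose and none fell. SELENOP, which carries selenium, was at 3.36, 1.601, and 3.11 CPM and 22.3, 5.28, and 7.68 CPM, and CFI, which breaks down complement C3b, at 5.185, 2.15, and 3.49 CPM and 14.2, 5.975, and 6.61 CPM. Called genes that lie next to each other in the RefSeq order included MMRN2 and SNCG, both higher, and RIPPLY1 and CLDN2, both higher, with log2 fold changes of 1.37 and 1.35.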
